A study of Mus musculus with 9 samples.

Results

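Macroautophagy encloses cytoplasm in a double membrane, the autophagosome, and delivers it to lysosomes for digestion. A ULK kinase complex starts the process, a class III phosphatidylinositol 3-kinase marks the membrane, lipid carriers enlarge it, and conjugation enzymes attach ATG8 proteins (LC3 and GABARAP) to it, where cargo receptors bind. Plasma cells make antibody in an extensive endoplasmic reticulum (ER), and autophagy is known to limit the size of that ER and to help long-lived plasma cells persist. The 38 genes described here were listed by name as the core of this pathway, with the transcription factors TFEB and TFE3 that drive autophagy and lysosome genes. All 38 were among the 29995 genes of the expression table, and all 38 were among the 12892 genes tested.

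The RNA came from spleens of 12-week-old B6.Blimp1+/GFP mice given 50 µg NP-LPS into the peritoneum 4 days before they were killed. NP-LPS is a hapten, NP, on bacterial lipopolysaccharide, which makes B cells respond without T cell help. Each mouse carries GFP at 1 allele of Prdm1, the gene of the plasma cell factor Blimp1, so all 3 groups share that allele and the immunization. The groups of 3 libraries each were naive B cells (naive cells; IgD high, B220+, not binding NP), NP-specific B cells (NP B cells; IgD-, NP-binding, GFP-, CD138-, B220+) and NP-specific plasma cells (PCs; IgD-, NP-binding, GFP+, CD138+). Since the naive cells came from immunized mice as well, no group was unimmunized. Per the study's methods the NP-binding cells of both kinds were sorted from 3 mice. The labels do not tie a library to a mouse, so p-values measure the spread between these libraries.

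The values are TPM, reads scaled to the length of the transcript and to the total of the library, so that levels can be compared between genes. Each library held 28.5 to 31.7 M estimated reads (naive cells), 34.9 to 38.6 M (NP B cells) or 20.2 to 22.1 M (PCs) on genes other than immunoglobulin (Ig) genes. The lowest member value rested on 16.7 estimated reads (Wipi1 in NP B cell replicate 1). Summed TPM of 6 B cell markers was 5860 to 6330 in naive cells, 4100 to 4460 in NP B cells and 628 to 672 in PCs, while 5 plasma cell markers summed to 142 to 167, 175 to 194 and 4810 to 5940 TPM. Xbp1 made up most of the latter sums (111 to 127, 142 to 168 and 3717 to 4564 TPM). In NP B against naive cells Sdc1 and Irf4 were lower, Xbp1 and Tnfrsf17 were higher and Prdm1 overlapped. PC replicate 3 stood apart: 8 hepatocyte markers summed to 5510 TPM there, against 64.1 and 65.1 in the other PC libraries and 2.39 to 6.30 in the 6 B cell libraries, and 8 macrophage markers summed to 91.5 TPM against 6.63 and 13.9. In PC replicates 1 and 2 nearly all of the hepatocyte sum was Trf (37.6 and 42.3 TPM) and Apoa2 (25.2 and 21.6 TPM). Alb had 0.166 and 0.081 TPM there, against 660 TPM in PC replicate 3. The 6 neutrophil markers summed to 32.8 TPM in PC replicate 3 and to 50.2 TPM in NP B cell replicate 2, against 1.01 to 5.19 TPM in the other 7 libraries. Most of these higher sums was S100a8 and S100a9 (18.7 and 11.4 TPM in PC replicate 3, 24.7 and 23.9 TPM in NP B cell replicate 2). Camp, Ngp and Ltf stayed below 1 TPM in both libraries, and Mpo had 1.68 and 1.13 TPM. Calls on members that changed without PC replicate 3 are given with and without it. For the related lists the counts in PCs against naive cells are given both ways, but not every changed call. The kit does not mark strand, so reads of genes that overlap on opposite strands cannot be told apart; 10 of the 38 members share more than 10% of their 31-base words with other genes, and for Uvrag, Atg4d, Sqstm1, Gabarapl2, Rb1cc1 and Atg2b the share was 10.6% to 19.3%.

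In PCs some autophagy transcripts were higher and others lower than in B cells. Of the 38 genes, 17 passed the test (limma voom, Benjamini-Hochberg adjusted p below 0.05 and more than 2-fold) in at least 1 of 3 comparisons, and 21 passed in none. PCs had higher Wipi1, Map1lc3b, Atg5 and Gabarapl1 and lower Tfeb, Pik3r4, Uvrag, Atg14, Ambra1, Atg16l1, Atg16l2 and Atg4c than naive cells. NP B cells had higher Optn and lower Ambra1, Atg16l1 and Atg16l2 than naive cells. For each of the 17 genes PCs had the highest or the lowest mean of the groups.

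**Figure D1:**
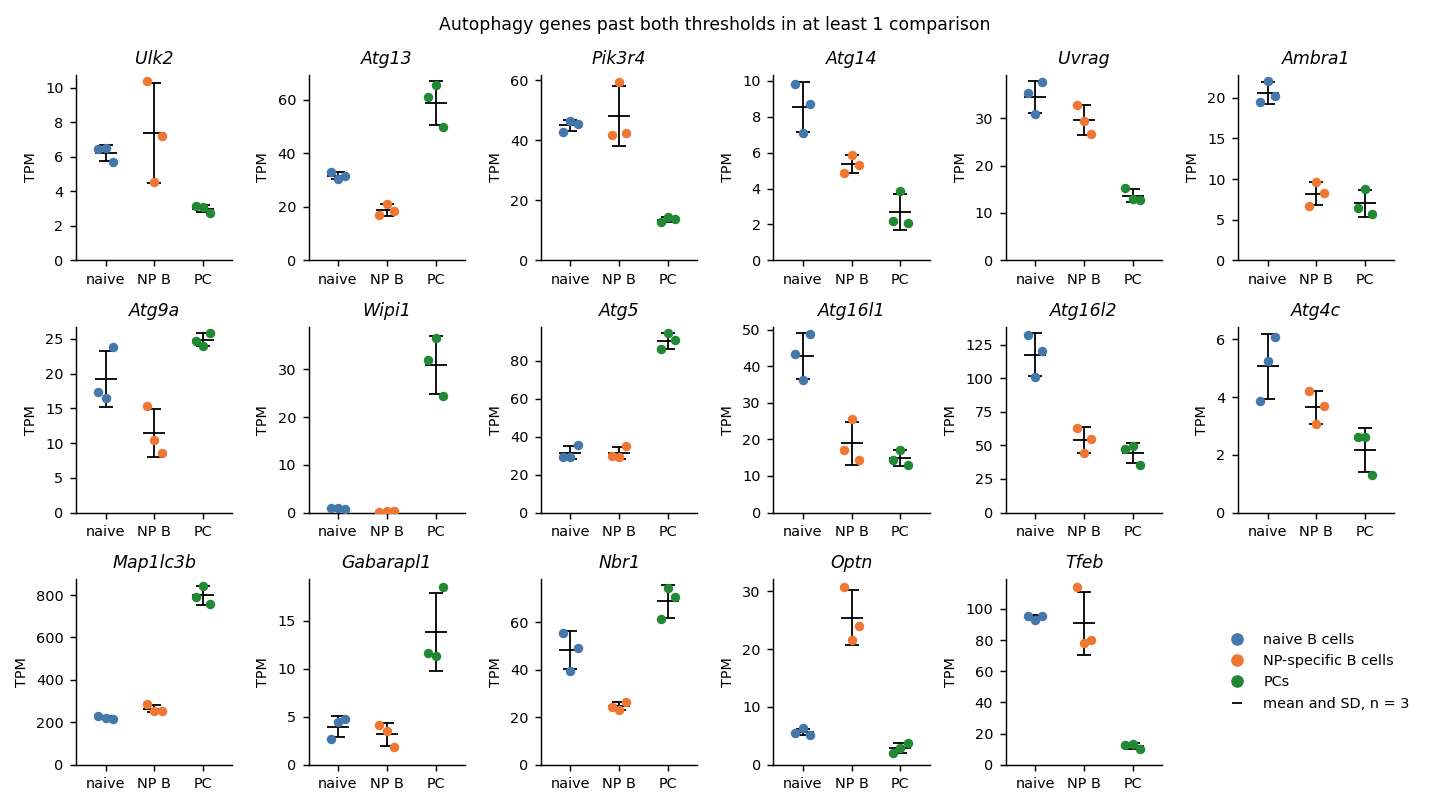
TPM (vertical axes, from 0) of the 17 autophagy genes past both thresholds in at least 1 comparison, by sorted population (horizontal axes). Each point is 1 library, and bars give the mean and SD of 3 libraries. Wipi1 stood between 24.5 and 36.6 TPM in PCs and below 1 TPM in the 6 B cell libraries, and Tfeb stood between 9.93 and 13.1 TPM in PCs against 78.1 to 114 TPM in B cells.

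The counts were read against the share of all 12892 tested genes that passed. In PCs against naive cells, 4 members were higher and 8 lower, 31.6% of the members, while 37.8% of all genes passed (11.4% higher and 26.3% lower). In NP B against naive cells, 1 member was higher and 3 lower, 10.5% of the members, while 18.5% of all genes passed (8.13% higher and 10.4% lower). In PCs against NP B cells, 7 members were higher and 5 lower, 31.6% of the members, while 32.2% of all genes passed (9.93% higher and 22.3% lower). The values of the groups did not overlap for 29 members in PCs against naive cells (69.7% of all genes), for 20 in NP B against naive cells (55.9%) and for 22 in PCs against NP B cells (58.2%). Counted in both directions, the share of members that passed was thus below or near that of all genes in each comparison. By direction, 10.5% of the members were higher and 21.1% lower in PCs against naive cells, 2.63% and 7.89% in NP B against naive cells, and 18.4% and 13.2% in PCs against NP B cells. In the last comparison the share of members was thus above that of all genes among the higher genes and below it among the lower ones. With Ig genes counted, 1 member was higher and 20 lower there, beside 420 and 7355 of 12324 genes. The share of members among the higher genes was then not above that of all genes.

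The median log2 change of the members was -0.16 in PCs against naive cells, beside -0.47 for all tested genes, -0.30 beside -0.16 in NP B against naive cells, and 0.05 beside -0.30 in PCs against NP B cells. Summed over the members, the level was 2270 ± 71.8 TPM (SD, n = 3) in naive cells, 2130 ± 92.0 TPM in NP B cells and 3010 ± 124 TPM in PCs. These sums are shares of the transcripts other than Ig. Where Ig transcripts were counted as well, a gene's TPM in PCs was 0.278 to 0.300 of its value without them, against 0.884 to 0.937 in B cells, and the summed level of the members was 2120 ± 69.1, 1900 ± 68.5 and 880 ± 13.6 TPM. The order of the PCs and the B cells was thus reversed. All changes given here are relative to transcripts other than Ig unless the sentence says otherwise, and in bulk RNA fewer cells with a transcript and less of it per cell cannot be told apart.

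**Figure D2:**
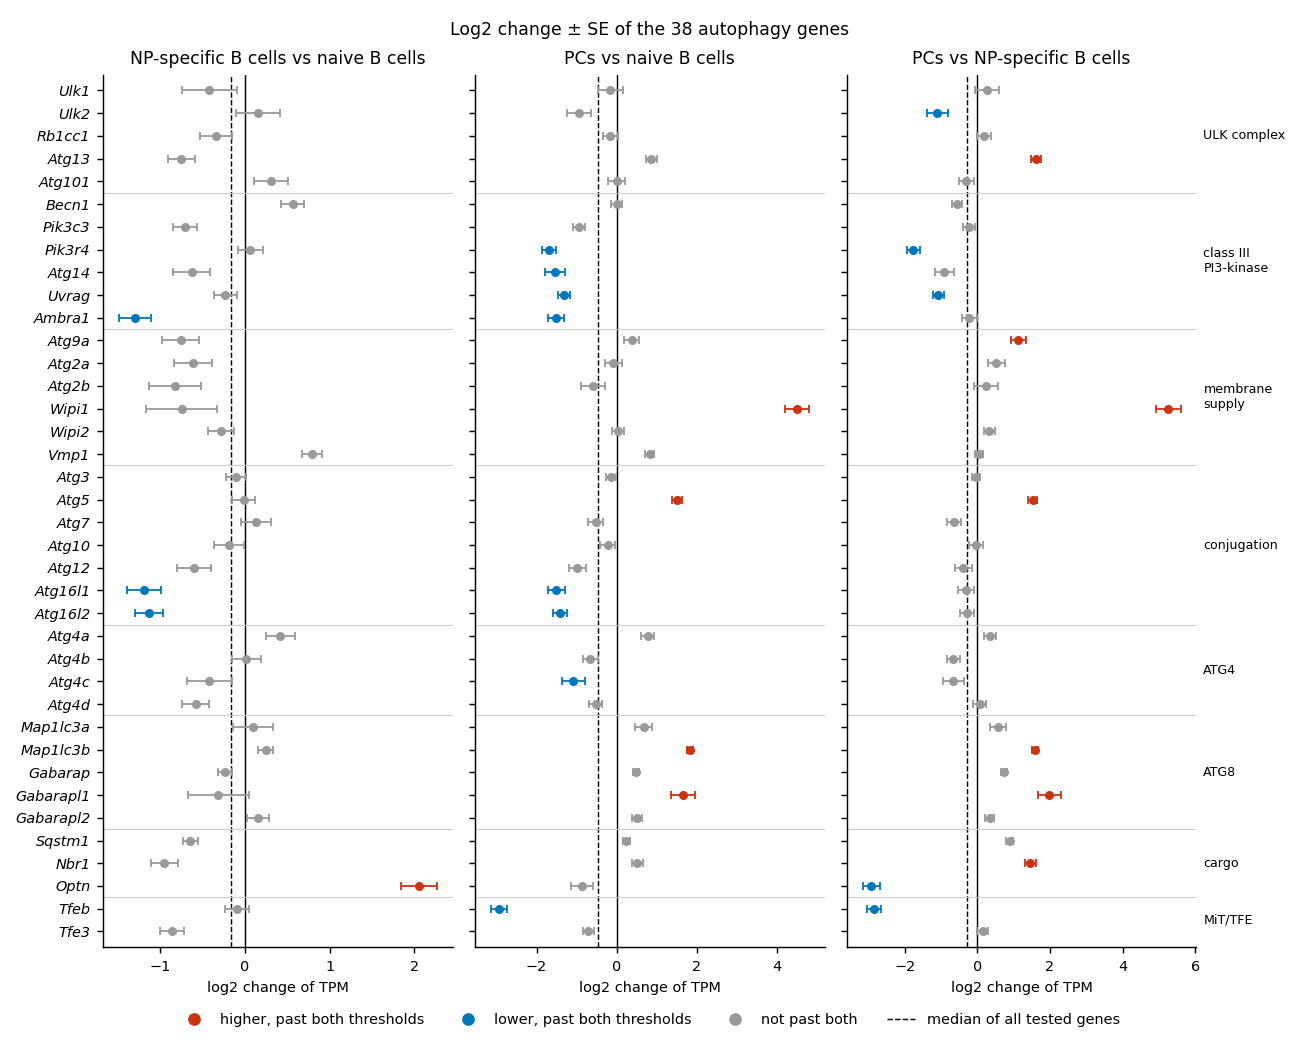
Log2 change of TPM (horizontal axes) with its SE for the 38 autophagy genes, grouped by role, in the 3 comparisons. Red and blue points passed both thresholds (higher and lower), the dashed line is the median of all tested genes, and genes of the class III PI3-kinase complex lie left of 0 or at it in PCs against naive cells.

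Wipi1 (chr11:109573331-109611967, minus strand) had the largest difference among the members. WIPI1 binds phosphatidylinositol 3-phosphate on the forming autophagosome, and WIPI2, its relative, brings the conjugation enzymes there. Wipi1 stood at 0.941, 0.893 and 0.735 TPM in naive cells, 0.216, 0.368 and 0.363 TPM in NP B cells, and 31.9, 36.6 and 24.5 TPM in PCs. The PC libraries lay far above all 6 B cell libraries. The log2 change was 4.52 ± 0.29 (SE) against naive cells (22.9-fold; adjusted p = 2.75e-07, limma) and 5.26 ± 0.34 against NP B cells (38.3-fold; adjusted p = 3.09e-07). These folds are on the scale of TPM plus the offset of 0.5, which understates the change of a gene this low in B cells: with estimated reads the log2 changes were 5.25 and 6.69, and with a pseudocount of 1 they were 4.09 and 4.59. Since Wipi1 was below 1 TPM in all B cell libraries, it passed the filter on low values only through the PC libraries, the group where it is high. In a fit with no filter its adjusted p was 8.77e-06 against naive cells and 4.18e-06 against NP B cells. Between NP B and naive cells the log2 change was -0.75 ± 0.42 (adjusted p = 0.175), and the 3 NP B cell libraries lay below the naive ones. That difference was past both thresholds with the authors' log2 values (-1.43, adjusted p = 0.00573, limma) and with a pseudocount of 0.1 (-1.22, adjusted p = 0.00475), and not with estimated reads (-1.44, adjusted p = 0.0575). Wipi2 had 44.7 ± 5.96 TPM in naive cells, 36.9 ± 5.35 in NP B cells and 46.0 ± 4.92 in PCs, so that Wipi1 came close to Wipi2 only in PCs.

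The other proteins of membrane supply moved less. Atg9a encodes the scramblase of the vesicles that seed the autophagosome, and its transcript had 17.4, 16.5 and 23.8 TPM in naive cells, 15.3, 10.4 and 8.58 in NP B cells and 24.7, 24.0 and 25.9 in PCs. PCs were above both B cell groups in every library, and the difference passed only against NP B cells (log2 change 1.13 ± 0.21, adjusted p = 0.000987). That call was lost without NP B cell replicate 3 (0.95), and with Ig genes counted the difference was -0.023. A share of 32.4% of the 31-base words of Atg9a transcripts also occurs in other genes, mainly Gm29253 on the same strand, so reads may have been divided between them. Vmp1, an ER scramblase, was 1.73-fold higher in NP B cells (adjusted p = 0.000357) and 1.78-fold higher in PCs (adjusted p = 8.91e-05) than in naive cells, with no overlap of the libraries, but below the fold threshold, and with Ig genes counted it was lower in PCs than in naive cells (-0.38). The lipid transporters Atg2a and Atg2b had group means between 4.11 and 9.09 TPM and passed in no comparison. Without NP B cell replicate 1, Atg2b was past both thresholds in NP B against naive cells (log2 change -1.03).

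Atg5 and the Atg16l genes, whose products sit in one complex, went opposite ways in PCs. ATG5 is joined to ATG12, and with ATG16L1 the pair places LC3 on the membrane. Atg5 had 29.5, 29.4 and 35.4 TPM in naive cells, 29.8, 29.2 and 34.8 in NP B cells, and 86.0, 94.3 and 90.6 in PCs. It was 2.84-fold higher in PCs than in naive cells (log2 change 1.51 ± 0.12, adjusted p = 1.24e-06) and 2.87-fold higher than in NP B cells (1.52 ± 0.12, adjusted p = 1.48e-06), while the B cell groups overlapped. With Ig genes counted both Atg5 calls were lost (0.30 and 0.33). Atg16l1 had 43.2, 36.3 and 48.7 TPM in naive cells, 17.0, 25.6 and 14.3 in NP B cells, and 14.2, 17.2 and 12.9 in PCs. Relative to naive cells it was lower in NP B cells (log2 change -1.19 ± 0.20, adjusted p = 0.0011) and in PCs (-1.50 ± 0.21, adjusted p = 0.000112). Atg16l2, the more abundant paralog, had 132, 101 and 120 TPM in naive cells, 63.0, 44.1 and 55.0 in NP B cells and 47.0, 49.6 and 35.5 in PCs. Its log2 changes from naive cells were -1.13 ± 0.17 (adjusted p = 0.000384) and -1.42 ± 0.17 (adjusted p = 3.16e-05), and without NP B cell replicate 2 the former was -0.99, just inside the fold threshold, as was the latter with median-of-ratios scaling (-0.93). PCs and NP B cells did not differ past the thresholds in either Atg16l gene. Atg16l1 made up 26.7% ± 2.13, 26.2% ± 9.10 and 25.2% ± 1.77 of the pair's summed TPM in naive cells, NP B cells and PCs.

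The remaining conjugation enzymes passed in no comparison. Atg3, the E2-like enzyme that hands over LC3, had 62.9 ± 7.03, 58.8 ± 3.69 and 57.3 ± 3.48 TPM in the 3 groups. Atg7, the E1-like enzyme, had 18.4 ± 2.33, 20.5 ± 3.4 and 12.8 ± 1.99 TPM, and Atg10, the E2-like enzyme for ATG12, had 9.19 ± 0.99, 8.06 ± 0.60 and 7.86 ± 1.11 TPM. Atg12 was just inside the fold threshold in PCs against naive cells (log2 change -0.99 ± 0.21, adjusted p = 0.00218), and it was past it without naive replicate 1 (-1.01), naive replicate 2 (-1.02) or PC replicate 3 (-1.08).

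Atg5 lies at chr10:44268358-44364291 on the plus strand (GRCm38, GENCODE M21). Its end is 72.9 kb from Prdm1, which is read from the minus strand and carries the reporter. Prdm1 itself had 1.97, 2.30 and 3.24 TPM in naive cells, 3.09, 3.94 and 7.24 in NP B cells and 99.8, 116 and 78.4 in PCs. Rtn4ip1, a tested gene 480 kb from Prdm1 on the same side, was not higher in PCs (log2 change -0.28 against naive cells and -1.32 against NP B cells). Whether the position beside Prdm1 bears on the level of Atg5 was not tested.

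The promoters of 3 members that were higher in PCs are shown because TFEB, whose transcript was lower in PCs, binds the CLEAR element, whose core is the E-box CACGTG. The sequences come from RefSeq (GRCm38.p6), run 5′ to 3′ toward the start site, and are the stretches of the 250 bases before it that lie in no annotated exon. Capitals mark CACGTG or its extended form TCACGTGA. Of the 250 bases, 43 next to the start were left out for Wipi1 and 77 for Map1lc3b as exonic, and for Atg3 the 44 bases next to the start and the 128 farthest from it are not shown. The Wipi1 stretch lies within the annotated extent of its gene. The window of Gabarapl1 lay within annotated exons and is not shown, and Atg3 is added as the member with the extended form.

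Wipi1 (chr11:109611433-109611639, minus strand): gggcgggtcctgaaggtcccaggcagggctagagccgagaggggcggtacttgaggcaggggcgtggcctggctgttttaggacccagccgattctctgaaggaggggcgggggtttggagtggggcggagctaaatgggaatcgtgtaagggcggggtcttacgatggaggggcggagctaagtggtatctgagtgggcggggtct
Map1lc3b (chr8:121590188-121590360, plus strand): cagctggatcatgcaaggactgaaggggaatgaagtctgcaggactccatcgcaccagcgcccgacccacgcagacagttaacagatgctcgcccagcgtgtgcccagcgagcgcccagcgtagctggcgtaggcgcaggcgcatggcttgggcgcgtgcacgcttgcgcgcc
Atg5 (chr10:44268089-44268338, plus strand): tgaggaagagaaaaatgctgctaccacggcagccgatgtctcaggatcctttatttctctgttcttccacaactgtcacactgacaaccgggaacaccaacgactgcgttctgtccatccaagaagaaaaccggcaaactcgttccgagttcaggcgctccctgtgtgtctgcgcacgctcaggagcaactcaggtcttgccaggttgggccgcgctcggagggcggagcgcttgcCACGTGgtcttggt
Atg3 (chr16:45158707-45158784, plus strand): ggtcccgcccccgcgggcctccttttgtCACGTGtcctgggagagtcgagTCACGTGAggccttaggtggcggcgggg

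Windows from 250 bases before to 50 after the start were found for 32 of the 38 members, 40 windows in all since some genes have more than 1 start. The palindrome CACGTG was present in 1 window each of 4 of these 32 genes (Atg3, Atg5, Atg7 and Atg14), beside 8.09% of the 27025 genes with a window, and 7.15% of all 32851 windows held it. In Atg5 it began 14 bases before the start, in Atg3 94 and 71 bases before it, and in Atg7 and Atg14 it lay beside a start inside the gene; neither Wipi1 nor Map1lc3b held it. Of the 4 genes with the motif, Atg5 was higher in PCs than in naive cells, Atg14 was lower, and Atg3 and Atg7 did not pass. TCACGTGA, which contains CACGTG, was found in Atg3 alone, beside 1.12% of the genes with a window (0.974% of all windows). Searched on both strands, the element of XBP1 and ATF6 (TGACGTGG; 0.676% of all windows), an ATF4 element (TGATGNAAT; 0.965%), a FOXO element (TTGTTTAC; 1.23%) and a Blimp1 element (GTGAAAGT; 0.846%) were found in 0 of the 40. These are matches of letters in short windows and not binding sites.

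The ATG8 proteins are the ubiquitin-like tags that coat the autophagosome and hold cargo receptors, and each of the 5 genes had its highest mean TPM in PCs, although with Ig genes counted Gabarap, Gabarapl2 and Map1lc3a were lower there than in B cells. Map1lc3b (chr8:121590361-121598760, plus strand), the gene of LC3B, had 229, 220 and 217 TPM in naive cells, 285, 253 and 255 in NP B cells and 791, 844 and 758 in PCs. Gabarap had 436, 473 and 425 TPM in naive cells, 356, 396 and 390 in NP B cells and 648, 631 and 601 in PCs. Among B cells Gabarap was thus the most abundant member, and in PCs Map1lc3b was. Map1lc3b was 3.58-fold higher in PCs than in naive cells (log2 change 1.84 ± 0.08, adjusted p = 1.66e-08) and 3.02-fold higher than in NP B cells (1.59 ± 0.08, adjusted p = 5.92e-08). With Ig genes counted both Map1lc3b calls were lost (0.62 and 0.39). Gabarap was 1.41-fold higher (adjusted p = 0.000354) and 1.65-fold higher (adjusted p = 2.56e-05), below the fold threshold, and both differences turned negative when Ig genes were counted (-0.73 and -0.485).

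Gabarapl1 (chr6:129533160-129542346, plus strand) was scarce, with 2.73, 4.50 and 4.73 TPM in naive cells, 4.17, 3.57 and 1.86 in NP B cells and 11.6, 11.4 and 18.5 in PCs. Its PC libraries did not overlap the B cell libraries, and the log2 changes were 1.67 ± 0.30 (adjusted p = 0.000658) and 1.98 ± 0.31 (adjusted p = 0.000301). With Ig genes counted both Gabarapl1 calls were lost (0.56 and 0.87). A share of 25.2% of the words of its transcripts also occurs in 1700101I11Rik on the opposite strand, from which its reads may not have been told apart. Gabarapl2 had 141, 131 and 169 TPM in naive cells, 168, 146 and 183 in NP B cells and 186, 209 and 232 in PCs. Map1lc3a, the gene of LC3A, had 15.2, 12.3 and 15.7 TPM, then 16.6, 14.9 and 14.9 TPM, then 29.8, 25.9 and 16.1 TPM in the same order of groups. Both were higher in PCs than in naive cells by less than the fold threshold (1.42-fold with adjusted p = 0.0058, and 1.59-fold with adjusted p = 0.0229), and both differences turned negative with Ig genes counted (-0.71 and -0.48). The lowest Map1lc3a value among PCs was in replicate 3, the library with hepatocyte transcripts, and without it the log2 change from naive cells was 0.93 (0.67 with it).

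**Figure D3:**
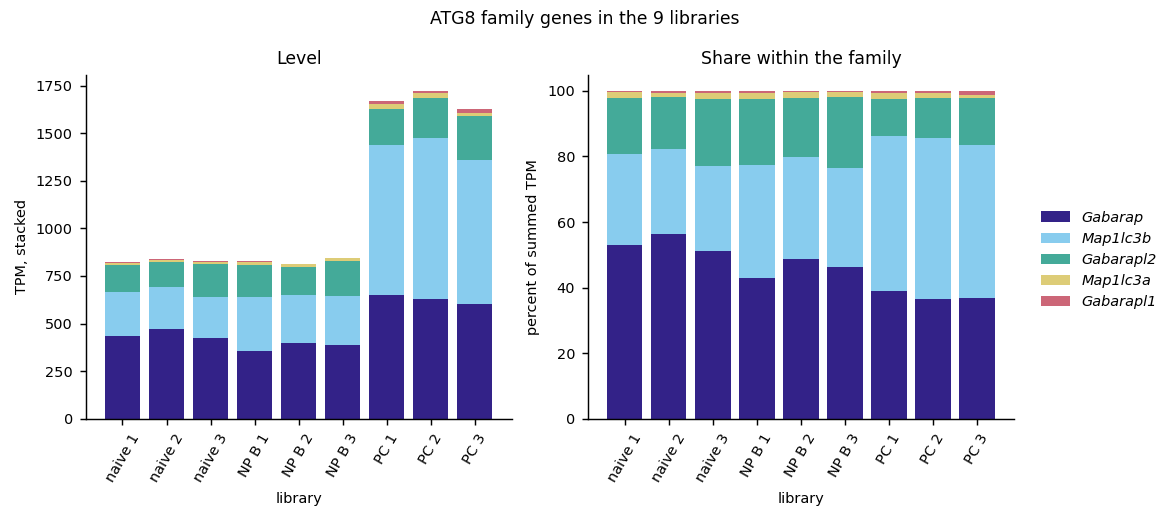
ATG8 family genes in the 9 libraries (horizontal axes): stacked TPM on the left and the share of each gene in the summed TPM of the family on the right. The sum was 1630 to 1720 TPM in PCs against 814 to 844 TPM in B cells, and Map1lc3b took 46.6% to 49.0% of it in PCs; with Ig genes counted the PC sums were the lower ones.

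Within the family, Map1lc3b had a larger and Gabarap a smaller share in each PC library than in any B cell library. The summed level was 831 ± 8.49 TPM in naive cells, 829 ± 15.3 TPM in NP B cells and 1670 ± 48.4 TPM in PCs, and with Ig genes counted it was 778 ± 7.22, 742 ± 18.4 and 488 ± 9.16 TPM, so its direction depends on that choice. The shares are not changed by 1 scaling factor per library. Map1lc3b took 27.8%, 26.1% and 26.1% of the sum in naive cells, 34.4%, 31.1% and 30.2% in NP B cells and 47.5%, 49.0% and 46.6% in PCs. Gabarap took 52.9%, 56.2% and 51.1%, then 42.9%, 48.7% and 46.1%, then 38.9%, 36.7% and 37.0%. In both genes the 3 groups did not overlap. With 3 libraries a group the two-sided exact permutation test cannot give p below 0.1, which all 6 of these comparisons reached (adjusted p = 0.170 over the 39 family shares compared), so none passes.

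The ATG4 proteases cut ATG8 proteins before conjugation and free them afterwards. Atg4c had 3.86, 5.25 and 6.09 TPM in naive cells, 4.21, 3.06 and 3.67 in NP B cells and 2.63, 2.62 and 1.30 in PCs. It was lower in PCs than in naive cells (log2 change -1.08 ± 0.29, adjusted p = 0.00729), and the call was lost without naive replicate 3 (-0.95) or PC replicate 3 (-0.82), where its PC value was lowest, and also with median-of-ratios scaling (-0.59), quantile normalization (-0.63) and a pseudocount of 1 (-0.94). Atg4b, the main protease of the group by level, was 1.57-fold lower in PCs than in naive cells (adjusted p = 0.00897), below the fold threshold. Atg4d was 1.44-fold lower in PCs and 1.5-fold lower in NP B cells than in naive cells (adjusted p = 0.0156 and 0.015). Atg4a was 1.71-fold higher in PCs than in naive cells (adjusted p = 0.00225), but 60.8% of its words occur elsewhere, mainly in the pseudogene Atg4a-ps, so its level is uncertain, and with Ig genes counted the difference was -0.39.

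Within the ULK complex, which passes on signals from nutrient sensing, Atg13 and Ulk2 passed, both between PCs and NP B cells. Atg13 had 33.0, 30.5 and 31.5 TPM in naive cells, 16.8, 21.2 and 18.5 in NP B cells and 61.0, 65.5 and 49.6 in PCs. The 3 groups did not overlap, with NP B cells lowest and PCs highest. The difference passed between PCs and NP B cells (log2 change 1.61 ± 0.15, 3.06-fold, adjusted p = 5.66e-06), and against naive cells it was 0.87 ± 0.14 (adjusted p = 0.000273) in PCs and -0.75 ± 0.16 (adjusted p = 0.00376) in NP B cells. With Ig genes counted the change was 0.43 between PCs and NP B cells, a call lost, and -0.33 between PCs and naive cells.

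The kinases themselves were scarce. Ulk2 had 6.48, 6.51 and 5.71 TPM in naive cells, 10.4, 4.57 and 7.20 in NP B cells and 3.13, 3.10 and 2.78 in PCs. Ulk2 was lower in PCs than in NP B cells (log2 change -1.10 ± 0.29, adjusted p = 0.00792), a call lost without NP B cell replicate 1, the highest library (-0.835), with median-of-ratios scaling (-0.73) and with quantile normalization (-0.69). Against naive cells it was just inside the fold threshold (-0.95) and past it without naive replicate 3 (-1.005). Ulk1 had 3.01 ± 0.47, 2.34 ± 1.42 and 2.67 ± 0.44 TPM in the 3 groups and did not pass. Rb1cc1, the gene of the scaffold FIP200, and Atg101, which stabilizes ATG13, had means of 39.8 to 50.5 and 63.6 to 81.3 TPM and passed in no comparison.

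The class III PI3-kinase complex makes phosphatidylinositol 3-phosphate. VPS34 (Pik3c3) is its catalytic subunit, VPS15 (Pik3r4) and Beclin 1 (Becn1) hold it, ATG14 directs it to autophagosomes, UVRAG to endosomes, and AMBRA1 ties Beclin 1 to the ULK complex. In PCs against naive cells 4 of these 6 genes were lower and 0 higher, with a median log2 change of -1.42 beside -0.47 for all tested genes, of which 26.3% were lower and 11.4% higher. Pik3r4 had 43.0, 46.5 and 45.5 TPM in naive cells, 41.9, 59.6 and 42.6 in NP B cells and 12.7, 14.4 and 13.7 in PCs. It fell in PCs, by 1.70 ± 0.17 on the log2 scale from naive cells (adjusted p = 9.64e-06) and by 1.76 ± 0.17 from NP B cells (adjusted p = 8.64e-06). Uvrag had 35.2, 30.9 and 37.6 TPM in naive cells, 32.8, 29.3 and 26.6 in NP B cells and 15.2, 13.0 and 12.8 in PCs, a log2 change of -1.31 ± 0.15 from naive cells (adjusted p = 2.47e-05) and of -1.08 ± 0.15 from NP B cells (adjusted p = 0.000138). Both Uvrag calls were lost with median-of-ratios scaling (-0.82 and -0.70) and with quantile normalization (-0.84 and -0.63).

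Ambra1 was lower in NP B cells as well, while Atg14 had an intermediate level there that did not pass (log2 change -0.63, adjusted p = 0.0422). Ambra1 had 19.5, 22.0 and 20.3 TPM in naive cells, 6.75, 9.63 and 8.27 in NP B cells and 6.48, 8.83 and 5.71 in PCs. The antigen-activated groups overlapped each other and lay below the naive libraries (log2 changes -1.29 ± 0.19, adjusted p = 0.000347, and -1.52 ± 0.19, adjusted p = 4.90e-05), and the call in PCs was lost with quantile normalization (-0.97). Atg14 had 9.85, 7.09 and 8.71 TPM, then 4.89, 5.86 and 5.33 TPM, then 2.19, 3.84 and 2.07 TPM in naive cells, NP B cells and PCs. It passed in PCs against naive cells (log2 change -1.54 ± 0.25, adjusted p = 0.000307) and not against NP B cells (-0.91 ± 0.26, adjusted p = 0.0124), where it passed without PC replicate 2 (-1.15). Pik3c3 was 1.92-fold lower in PCs (adjusted p = 0.000229) and 1.63-fold lower in NP B cells (adjusted p = 0.00281) than in naive cells, and Becn1 was 1.48-fold higher in NP B than in naive cells (adjusted p = 0.00637) and its PC and naive levels gave a log2 change of 0.00 ± 0.14, below the fold threshold in each case (with Ig genes counted, Becn1 was at -1.21 in PCs against naive cells). Of the words of Becn1, 40.0% also occur in other genes, mainly Cntd1 on the opposite strand.

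The cargo receptors did not move together. SQSTM1 (p62) and NBR1 carry ubiquitylated protein, and OPTN carries mitochondria and bacteria. Optn (chr2:5020642-5064051, minus strand) had 5.48, 6.28 and 5.17 TPM in naive cells, 30.7, 21.6 and 24.0 in NP B cells and 2.11, 2.88 and 3.82 in PCs. Its 3 groups did not overlap, with NP B cells highest by a wide margin: the log2 change was 2.06 ± 0.21 from naive to NP B cells (4.16-fold, adjusted p = 3.70e-05) and -2.93 ± 0.24 from NP B cells to PCs (7.60-fold lower, adjusted p = 2.13e-06). Against naive cells PCs were lower by 0.87 ± 0.27 (adjusted p = 0.0178), which passed the fold threshold without PC replicate 3 (-1.05).

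Nbr1 and Sqstm1 had the opposite order. Nbr1 had 55.7, 39.7 and 49.2 TPM in naive cells, 24.4, 23.1 and 26.6 in NP B cells and 61.3, 74.6 and 70.6 in PCs. It was 2.75-fold higher in PCs than in NP B cells (log2 change 1.46 ± 0.15, adjusted p = 1.38e-05), 1.93-fold lower in NP B than in naive cells (adjusted p = 0.000908), and without naive replicate 2 the latter was past the fold threshold (-1.08). Sqstm1 had 245, 231 and 248 TPM in naive cells, 160, 165 and 142 in NP B cells and 276, 291 and 294 in PCs. The groups did not overlap, but the differences were below 2-fold (1.85-fold between PCs and NP B cells, adjusted p = 9.23e-06; 1.56-fold between NP B and naive cells, adjusted p = 0.000259). With Ig genes counted, Sqstm1 was lower in PCs than in NP B cells (-0.32) and Nbr1 lower in PCs than in naive cells (-0.69), while the call on Nbr1 between PCs and NP B cells was lost (0.27).

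The transcription factor TFEB turns on autophagy and lysosome genes when nutrients are short, and TFE3 is its close relative. Tfeb (chr17:47737030-47792419, plus strand) had 95.4, 93.1 and 95.6 TPM in naive cells, 114, 78.1 and 80.1 in NP B cells and 12.9, 13.1 and 9.93 in PCs. The B cell groups overlapped, and PCs were 7.72-fold below naive cells (log2 change -2.95 ± 0.20, adjusted p = 3.42e-07) and 7.24-fold below NP B cells (-2.86 ± 0.20, adjusted p = 5.65e-07). Tfe3 had 23.8, 21.1 and 22.3 TPM in naive cells, 11.8, 13.5 and 11.5 in NP B cells and 14.6, 13.2 and 12.9 in PCs. Tfe3 was 1.81-fold lower in NP B cells (adjusted p = 0.000927) and 1.64-fold lower in PCs (adjusted p = 0.00116) than in naive cells, below the fold threshold. Tfeb made up 80.9% ± 0.78 of their summed TPM in naive cells, 87.8% ± 2.70 in NP B cells and 46.8% ± 3.15 in PCs.

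Leaving out PC replicate 3, the counts in PCs against naive cells were 4 higher and 9 lower, with 7 of the 8 lower genes among them (Atg4c was lost, Atg12 and Optn were gained), and in PCs against NP B cells they stayed at 7 higher and 5 lower with the same genes. The differences in Wipi1, Map1lc3b, Atg5, Gabarapl1, Pik3r4, Uvrag and Tfeb were thus past both thresholds without the library that held hepatocyte transcripts.

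How libraries are scaled moved the members together with all genes. In PCs against naive cells the median of all tested genes was -0.47 as reported, 0.02 with median-of-ratios factors, -0.07 with quantile normalization and -1.40 with Ig genes counted. The members higher in PCs than in naive cells were 4, 9, 7 and 1 under these settings, and the lower ones 8, 5, 5 and 24. Wipi1 was higher, and Tfeb, Pik3r4, Atg14 and Atg16l1 were lower, under each alternative that tested them (20, and 19 for Atg14). With Ig genes counted, Map1lc3b, Atg5 and Gabarapl1 kept their sign in PCs against naive cells (log2 changes 0.62, 0.30 and 0.56) and against NP B cells (0.39, 0.33 and 0.87) without passing the fold threshold. For Gabarapl1 against naive cells the p threshold was not passed there either (adjusted p = 0.121, limma).

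**Figure D4:**
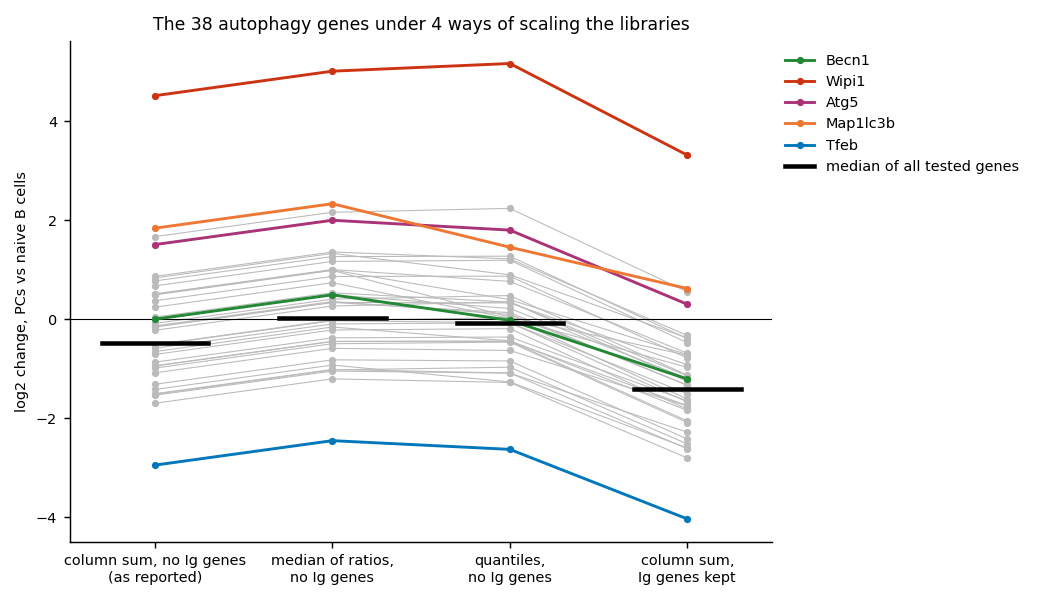
Log2 change in PCs against naive cells (vertical axis) of the 38 autophagy genes under 4 ways of scaling the libraries (horizontal axis). Each line is 1 gene, 5 are coloured, and black bars mark the median of all tested genes, which moved from -0.47 as reported to -1.40 with Ig genes counted; Becn1, at 0.00 as reported, stood at -1.21 there.

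Genes around the core pathway were taken from 6 lists of 102 genes in all, drawn up with earlier results of these data known. Without PC replicate 3, the counts in PCs against naive cells were 2 higher and 7 lower for autophagosome formation and fusion and 8 and 8 for lysosome genes, and the same as given here for the other 4 lists. As background for each of these lists, 11.4% of all tested genes were higher and 26.3% lower in PCs against naive cells, and 8.13% were higher and 10.4% lower in NP B against naive cells. Of 20 factors that form or fuse autophagosomes, 2 were higher and 9 lower (55% in all, beside 37.8% of all genes) in PCs than in naive cells, with a median log2 change of -0.95 beside -0.47 for all genes. Rubcn (1700021K19Rik in the files), whose product Rubicon restrains the UVRAG-containing kinase complex and fusion with lysosomes, had 96.8, 93.4 and 96.4 TPM in naive cells, 81.0, 78.2 and 65.3 in NP B cells and 7.40, 6.33 and 7.24 in PCs (log2 change from naive cells -3.69 ± 0.16, adjusted p = 1.17e-08). The fusion SNARE Snap29 (-2.05 ± 0.15, adjusted p = 6.75e-07) and the HOPS tether subunit Vps18 (-2.00 ± 0.24, adjusted p = 3.64e-05) fell in PCs as well. The scramblase Tmem41b (1.5 ± 0.15, adjusted p = 7.76e-06) and Wdr45 (1.08 ± 0.12, adjusted p = 1.75e-05), the gene of WIPI4, were higher, although with Ig genes counted Wdr45 was at -0.12 and the call on Tmem41b was lost (0.29). In NP B against naive cells Sh3glb1, which binds UVRAG, was the 1 higher gene of the list (1.32 ± 0.33, adjusted p = 0.00889), and Plekhm1 (-1.18 ± 0.15, adjusted p = 0.000195) and Tecpr1 (-1.07 ± 0.25, adjusted p = 0.00597), both of which act at fusion, were the 2 lower ones; Tecpr1 was below the fold threshold without NP B cell replicate 3 (-0.83), and in PCs against naive cells it was lower (-1.17) but below that threshold without PC replicate 3 (-0.88); both Tecpr1 calls were lost with median-of-ratios scaling (-0.96 and -0.67) and the latter with quantile normalization (-0.68).

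The list for autophagy of the ER holds 9 receptors and 3 regulators of UFMylation, the attachment of the small protein UFM1 (Ufl1, Ddrgk1 and Cdk5rap3). Of these 12 genes, 5 were higher and 3 lower (66.7%, beside 37.8% of all genes) in PCs than in naive cells, with a median log2 change of 0.34 beside -0.47 for all genes. Those higher were Ccpg1, Rtn3, Sec62 and the regulators Cdk5rap3 and Ufl1. Ccpg1, an ER receptor induced by unfolded protein, had 34.6, 32.3 and 36.1 TPM in naive cells, 23.1, 19.8 and 12.1 in NP B cells and 171, 183 and 161 in PCs (log2 change from naive cells 2.30 ± 0.16, adjusted p = 5.03e-07). Rtn3, the receptor of ER tubules (1.76 ± 0.13, adjusted p = 9.78e-07), and Sec62, the receptor of recovery from ER stress (1.76 ± 0.12, adjusted p = 2.79e-07), were higher as well, but with Ig genes counted both calls were lost (0.55 for each). In that setting Atl3 (-1.56) and Calcoco1 (-1.03) passed as lower, so the balance of higher and lower genes in this list depends on the scaling. The FAM134 receptors of ER sheets had the reverse pattern, and all 3 fell. Retreg1 (FAM134B) had 43.7, 48.8 and 61.7 TPM in naive cells, 29.2, 25.7 and 31.5 in NP B cells and 6.63, 6.03 and 6.50 in PCs (-2.91 ± 0.20, adjusted p = 3.76e-07), and Retreg3 (-2.59 ± 0.21, adjusted p = 1.72e-06) and Retreg2 (-1.75 ± 0.34, adjusted p = 0.00102) were lower too. Retreg2 was lowest in PC replicate 3, and without that library its change was -1.27. In NP B against naive cells 0 of the 12 were higher and 3 lower (Retreg3, Atl3 and Calcoco1, with log2 changes of -1.61, -1.45 and -1.14).

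Of 28 lysosome genes listed, 8 were higher and 7 lower (53.6%, beside 37.8% of all genes) in PCs than in naive cells, and the median log2 change was 0.00 beside -0.47 for all genes. Gusb, the gene of beta-glucuronidase, had 34.5, 32.4 and 34.2 TPM in naive cells, 41.8, 58.8 and 62.9 in NP B cells and 385, 426 and 362 in PCs (3.51 ± 0.15, adjusted p = 9.91e-09). The protease gene Ctsb (2.55 ± 0.10, adjusted p = 7.71e-09) and Gla (2.28 ± 0.26, adjusted p = 2.36e-05), the gene of alpha-galactosidase A, followed. Hexa, which encodes an enzyme that breaks down gangliosides, had 91.4, 89.5 and 94.2 TPM in naive cells, 79.7, 79.1 and 59.4 in NP B cells and 22.2, 21.2 and 22.9 in PCs, and it fell in PCs (-2.03 ± 0.14, adjusted p = 5.39e-07). In NP B against naive cells Lamp1 (1.85 ± 0.66, adjusted p = 0.0447) and the calcium channel gene Mcoln1 (-1.15 ± 0.17, adjusted p = 0.000451) were the genes past both thresholds. Lamp1 had 102, 14.2 and 57.6 TPM in NP B cells, a spread wider than in any other group. Its call was lost without any 1 of 7 libraries (all but NP B cell replicate 2 and PC replicate 3). It was also lost with the authors' log2 values, with no filter, with a pseudocount of 0.1 and in a fit of the 6 libraries compared. Over all fits that left out 1 library, with the call kept or lost, adjusted p ran from 0.000246 to 0.115 (limma). Mcoln1 was below the fold threshold without NP B cell replicate 3 (-0.97).

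Of 16 subunits of the vacuolar ATPase, which acidifies lysosomes, 3 were higher and 1 lower (25%, beside 37.8% of all genes) in PCs than in naive cells, with a median log2 change of 0.14 beside -0.47. Those higher were Atp6v0a1 (1.87 ± 0.15, adjusted p = 1.46e-06), Atp6v0c (1.44 ± 0.09, adjusted p = 2.83e-07) and Atp6ap2 (1.08 ± 0.16, adjusted p = 0.00014), and Atp6ap2 was at 0.97 without naive replicate 1. With Ig genes counted none of these calls held (0.66, 0.22 and -0.13). Atp6v1b2 was the lower subunit (-1.23 ± 0.16, adjusted p = 6.54e-05), and its call was lost with median-of-ratios scaling (-0.73) and quantile normalization (-0.915). In NP B against naive cells Atp6ap1 alone passed (-1.05 ± 0.12, adjusted p = 7.40e-05), and it was below the fold threshold without naive replicate 3 (-0.975) or NP B cell replicate 2 (-0.99) and with median-of-ratios scaling (-0.94).

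Among 12 receptors of mitophagy and other selective autophagy, 11 were tested and 1 passed in PCs against naive cells (9.09%, beside 37.8% of all genes). Bnip3, a receptor on mitochondria, had 35.01, 23.1 and 31.4 TPM in naive cells, 9.5, 5.05 and 11.7 in NP B cells and 5.38, 4.16 and 21.6 in PCs (-1.83 ± 0.45, adjusted p = 0.0049), and it was lower in NP B than in naive cells too (-1.78 ± 0.45, adjusted p = 0.00937), a call lost with the authors' log2 values (adjusted p = 0.0568) and with no filter on low values (adjusted p = 0.0547). The highest PC value was that of replicate 3, the library with hepatocyte transcripts, and without it the log2 change in PCs was -2.52. Of 14 regulators of autophagy and lysosome genes, 11 were tested, and 1 was higher and 3 lower in PCs than in naive cells (36.4%). Foxo3 was higher (1.39 ± 0.29, adjusted p = 0.00162; 0.29 and not past the thresholds with Ig genes counted), and Foxo1 (-1.66 ± 0.34, adjusted p = 0.00137), Flcn (-1.44 ± 0.16, adjusted p = 1.93e-05) and Foxo4 (-1.15 ± 0.30, adjusted p = 0.00661) were lower. The Flcn call was lost with median-of-ratios scaling (-0.95), and the Foxo4 call with that scaling (-0.66), quantile normalization (-0.71) and a pseudocount of 1 (-0.85). Foxo4 was scarce, with 1.73, 1.52 and 1.95 TPM in naive cells, 0.81, 1.00 and 0.55 in NP B cells and 0.72, 0.45 and 0.38 in PCs. Foxo4 thus passed the filter on low values only through the naive libraries, the group where it is high. In NP B against naive cells Rragd, a GTPase gene of lysosomal nutrient sensing, was the 1 gene of the list to pass (-1.03 ± 0.35, adjusted p = 0.0344), at levels of 0.210 ± 0.10 and 0.940 ± 0.14 TPM, and the call was lost without any 1 of the 6 libraries compared, under both other scalings and with a pseudocount of 1. Rragd reached 1 TPM only in naive replicate 3 (1.05) and PC replicates 1 and 2 (1.46 and 1.89). It thus passed the filter on low values only through the groups where it is higher, and it was not tested with Ig genes counted. FOXO factors switch on autophagy genes when growth factor signals stop, and folliculin (Flcn) helps keep TFEB and TFE3 out of the nucleus.

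**Figure D5:**
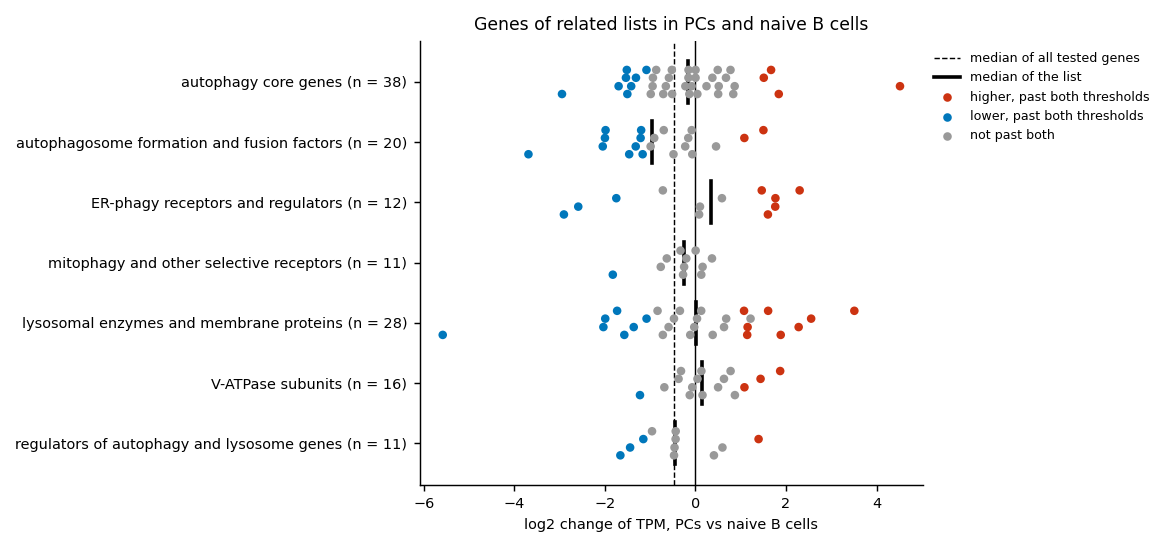
Log2 change in PCs against naive cells (horizontal axis) of the 38 autophagy genes and of the tested genes of 6 related lists (rows). Points are genes, thick bars are the medians of the lists and the dashed line is the median of all tested genes (-0.47); the factors of autophagosome formation and fusion have the lowest list median, -0.95, and the ER-phagy receptors and regulators the highest, 0.34.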

How the data were processed

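RNA of sorted splenic B cells and PCs was made into libraries with SMART-Seq v4 and Nextera XT and read single-end. The authors pseudoaligned the reads with kallisto and deposited TPM per gene, in 1 table with Ig genes and 1 without (322 genes fewer), and log2 values from voom; the processing notes name mm10. The table without Ig genes holds values that keep 1 factor per library to the other table (within 0.0642% over 339 member values). The 38 members and all lists were chosen with earlier results of these data known.

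TPM values without Ig genes entered limma voom (limma 3.58.1, R 4.3.3) with column sums as library sizes, an offset of 0.5 and 1 mean per group over all 9 libraries, after the study's methods. Tested genes reached 1 TPM in 3 or more libraries, and calls needed a Benjamini-Hochberg adjusted p below 0.05 and more than 2-fold. The deposited log2 values served as an alternative, and estimated reads were recovered from them. The fit was tested on simulated data in which few genes changed, as many up as down. That test does not bear on how libraries are scaled. Per-library values are given for members past both thresholds in at least 1 comparison and for the ATG8, cargo receptor and MiT/TFE genes; of each related list at most the 3 largest rises and falls against naive B cells are named, and some of these are not reported here. Shares within families were compared by exact permutation tests. Matching used 180 listed symbols and 6 older symbols. Gene positions and shared words of 31 bases come from GENCODE M21. Alternatives were the table with Ig genes, median-of-ratios and quantile scaling, the deposited log2 values, estimated reads, 2 other filters, pseudocounts of 0.1 and 1, the 6 libraries compared, a replicate block and each library left out.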

Additional observations from a re-analysis of the deposited data

How the results depend on the processing

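Of 28 calls on members, 12 held in all 20 alternatives. Scaling moved most of the rest. With Ig genes kept, members numbered 1 higher and 24 lower for PCs against naive cells (4 and 8 as reported) and 1 and 20 in PCs against NP B cells (7 and 5). Median-of-ratios scaling gave 9 and 5 in the former and 9 and 3 in the latter, and quantile normalization gave 7 and 5, and 7 and 3. The median of all genes moved by -0.93 and -0.97 with Ig genes kept, by 0.49 and 0.38 with median-of-ratios factors (0.11 in NP B against naive cells) and by 0.40 and 0.30 with quantiles. Over all genes, 1473 higher and 3397 lower in PCs against naive cells became 551 and 7943, 2349 and 1814, and 2063 and 2047; 1280 and 2870 in PCs against NP B cells became 420 and 7355, 2023 and 1788, and 1795 and 1843; and 1048 and 1340 in NP B against naive cells became 1258 and 1022 with median-of-ratios factors and 1157 and 976 with quantiles.

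With Ig genes kept, the members above 0 were 4 of 38 for PCs against naive cells (16 as reported) and 6 against NP B cells (20). Among the genes whose sign turned and which passed as reported or with Ig genes kept were Atg101 (-1.19), Becn1 (-1.21), Wipi2 (-1.15), Wdr45 (-0.12), Calcoco1 (-1.03) and Atp6ap2 (-0.13) in PCs against naive cells, and Atg9a (-0.023), Vmp1 (-1.16) and Atg4d (-1.08) in PCs against NP B cells. Ig transcripts take most of the PC total, by which that table is scaled.

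Leaving out each library in turn, members lower in NP B against naive cells were 2 to 4 and higher 1; in PCs against naive cells 8 to 9 were lower and 4 higher; in PCs against NP B cells 4 to 6 were lower and 6 to 7 higher. Estimated reads in place of TPM moved family shares by more than 1 SD in 6 of 312 values: the differences were 22.3 percentage points for Map1lc3b, -2.80 for Atg4c and -37.3 for Tfeb in PCs against naive cells, -1.48 for Atg4c and -47.1 for Tfeb in PCs against NP B cells, and 9.79 for Tfeb in NP B against naive cells; the cause was not tested. Of 720 counts for related lists, 99 moved by over 1.5 times, 22 of them with Ig genes kept.

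Whether libraries with the same replicate number share a mouse is not given in the labels, and their deviations correlated between -0.075 and 0.067. A replicate block left the member counts at 1 and 3, 4 and 8, and 7 and 5, with 0 calls lost and 0 gained. Depth limits Wipi1 in NP B cells, which rests on 16.7 to 28.0 estimated reads.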
